A study of Mus musculus with 106 samples.

Results

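The liver response of the inbred mouse strain A/J to a high-fat diet was measured by comparing 6 A/J mice on a high-fat diet (HFD) with 6 A/J mice on control chow (CD) over all 14330 genes of the deposited count table. The 12 libraries were chosen by their strain and diet labels, and no measured value entered the choice. The series also held 94 libraries from 8 other inbred strains. Each library held liver mRNA of 1 mouse. The A/J libraries made 4 groups of 3, namely females on CD, males on CD, females on HFD and males on HFD. In the chow 6% of the energy came from fat, 20% from protein and 74% from carbohydrate, and in the HFD these shares were 60%, 20% and 20%. Both were fed from 8 weeks of age until the mice were killed at 21 weeks, in a morning window, with perfused livers. The hour of death of each mouse is not in the labels. The labels name no transgene, mutation, drug or treatment other than diet. Mice entered in staggered cohorts, and the animal numbers in the labels fall in a separate range for each of the 4 A/J groups, so that diet and cohort cannot be told apart.

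A/J mice are known for gaining less weight and staying less diabetic on fat-rich food than C57BL/6J mice. Liver metabolism follows both the fuel supply and an internal clock. In that clock, ARNTL (also called BMAL1) pairs with CLOCK or NPAS2, binds E-boxes in DNA and drives genes of its own repressors, among them the period (Per), cryptochrome (Cry), Bhlhe40 and Bhlhe41, Ciart and Nr1d genes. The NR1D proteins in turn hold down Arntl and Npas2. DBP, TEF and HLF are clock-driven factors that bind D-boxes and carry the rhythm to metabolic genes. Activators and their targets therefore peak at different hours of the day.

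Gene counts summed to between 44717584 and 73577221 per A/J library, with CD libraries at 44717584 to 57480005 and HFD libraries at 47621349 to 73577221. Levels are given as counts per 1000000 (CPM) over library sizes scaled by TMM factors, and do not allow for gene length, so they compare libraries and not genes. Of the variance among the 12 libraries, the first principal component held 44.1% and separated the sexes. The next component held 12.7%, and 93.5% of its variance lay between the diets. Hepatocyte markers summed to 165483 to 213444 CPM on CD and 149403 to 214519 CPM on HFD, with 0 of 9 measured members called. No member was called in the other 9 marker lists with measured members, against 1.15% of all genes. At that share, lists of 1 to 20 members may well hold no call. At an unadjusted p under 0.05 by edgeR's quasi-likelihood test, 13.0% of all genes were counted. The marker lists held 1 hepatocyte (11.1%), 1 macrophage (5%), 3 T, B and NK cell (23.1%), 1 blood (16.7%) and 1 cholangiocyte gene (20%), and the 1 pancreas gene. The granulocyte, endothelial, stellate and fat-tissue lists held 0. Sums of the 20 macrophage markers were 636 to 1165 CPM on CD and 645 to 1066 CPM on HFD. All 9 granulocyte markers had positive log2 fold changes (median 0.87), with sums of 0.981 to 11.1 CPM on CD and 2.30 to 10.4 CPM on HFD. All 6 blood cell markers were positive too (median 0.54), with sums of 44.1 to 258 CPM on CD and 88.7 to 230.4 CPM on HFD, and the sums of both lists overlapped between the diets. Among the fat-tissue markers, Adipoq, Lep, Plin1 and Retn were not listed in the table, and skeletal muscle markers were not listed at all. In such bulk tissue, fewer cells of a type and less RNA per cell cannot be told apart.

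On the HFD, A/J livers held more RNA of 5 of 10 clock repressors and of the D-box factors Dbp and Tef, and less of the clock activators Arntl and Npas2. Thrsp, a regulator of fat synthesis, and the immunoglobulin heavy chain genes Ighg1 and Ighg2b were also higher. Scd1, which makes monounsaturated fatty acids, and Pdk4, which blocks glucose oxidation in mitochondria, were lower. Averaged over the sexes, 165 of 14330 genes (1.15%) passed an adjusted p of 0.05 by edgeR's quasi-likelihood test with Benjamini-Hochberg adjustment. Of these, 60 (0.419% of the genes tested) were higher on HFD and 105 (0.733%) were lower. The median absolute log2 fold change of the called genes was 0.74, and 57 changed at least 2-fold, 30 upward and 27 downward. In 74 of the 165 the 6 HFD libraries did not overlap the 6 CD libraries, against 297 (2.07%) of all genes. The count of 165 fell to between 46 and 99 on leaving out any 1 of 9 libraries (46 without male HFD 3, 50 without female HFD 3, 57 without male CD 1, 78 without female CD 2, 91 without male CD 2, 92 without male HFD 2, 93 without female HFD 2, 98 without female CD 1 and 99 without female CD 3), and 29 genes kept their call in all 12 such fits. A fit of the A/J libraries alone, where the spread comes from these 12 mice, called 790 (5.51% of genes, 377 higher and 413 lower). With array weights limma called 2513 (17.5%, 1154 higher and 1359 lower).

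The 17 gene lists were chosen with earlier results of these data known. In edgeR's fit of all 9 strains, the clock list held the most calls of the 17. Of its 24 measured members, 10 were higher and 2 lower on HFD, which is 50% of the list against 1.15% of all genes, and the list's median log2 fold change was 0.69 against -9.52e-05 over all genes. By role, 2 of 5 activators were lower, 5 of 10 repressors were higher, 2 of 4 genes of the D-box factor group were higher, and 3 of 5 further outputs were higher. The 12 calls became 6 without male CD 1, male HFD 3 or female HFD 3, and 7 without female CD 2. With array weights limma called 19, of which 14 were higher and 5 lower, against 17.5% of all genes in that fit. The A/J libraries alone gave 15, of which 12 were higher and 3 lower, against 5.51% of all genes. In both of these fits the list of endoplasmic reticulum and heat shock genes held more calls than the clock list. With male CD 1 and male CD 2 both left out, a setting chosen after the data were seen that leaves 1 male CD library, 0 of the 24 and 3 genes in all were called.

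The promoters of clock genes carry short motifs that the clock factors bind. The 3 windows shown hold such a motif, and they were picked with the changes of their genes known. The windows of Bhlhe41 and Tef hold an E-box too and are not shown. The window of Dbp, the largest rise named here, holds none of the motifs searched. Each window shown is the 250 bases before the RefSeq gene start (build GRCm38.p6), printed 5′ to 3′ on the gene's strand, with motifs in capitals. The motifs searched on both strands were the E-box CACGTG, which reads the same on both strands, its variant CACGTT (an E-prime box), the D-box TTATGNAA and the core TAGGTCA of the ROR element, which NR1D and ROR proteins bind. Ciart, a repressor of ARNTL-CLOCK, lies at chr3:95878503-95882251 on the minus strand, and its window chr3:95882229-95882478 holds E-boxes that start at -116, -58 and -44 from the RefSeq start. The window of the period gene Per3, chr4:151044666-151044915 on the minus strand, holds D-boxes at -205 and -158. The window of Clpx, a mitochondrial protein unfoldase that is no member of the clock list, is chr9:65294010-65294259 on the plus strand and holds an E-prime box at -101.
Ciart: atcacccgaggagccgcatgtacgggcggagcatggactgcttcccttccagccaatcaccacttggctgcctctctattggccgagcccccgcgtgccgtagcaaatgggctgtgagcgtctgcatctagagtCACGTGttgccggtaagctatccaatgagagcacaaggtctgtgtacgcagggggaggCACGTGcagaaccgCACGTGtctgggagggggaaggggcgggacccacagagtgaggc
Per3: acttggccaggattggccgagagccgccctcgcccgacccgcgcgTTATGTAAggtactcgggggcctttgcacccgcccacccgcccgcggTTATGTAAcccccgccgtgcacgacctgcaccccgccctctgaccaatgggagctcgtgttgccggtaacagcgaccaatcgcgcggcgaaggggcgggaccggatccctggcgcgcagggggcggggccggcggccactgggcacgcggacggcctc
Clpx: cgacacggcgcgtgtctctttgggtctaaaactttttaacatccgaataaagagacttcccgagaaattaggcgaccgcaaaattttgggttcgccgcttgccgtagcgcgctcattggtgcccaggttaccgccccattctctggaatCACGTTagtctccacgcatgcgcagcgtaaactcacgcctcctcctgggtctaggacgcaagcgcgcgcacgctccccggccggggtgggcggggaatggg
The E-box was present in windows of 6 of the 20 clock genes with a RefSeq match (Bhlhe41, Ciart, Cry1, Per1, Tef and Tspan4), against 9.78% of 10584 measured genes and 6.02% of all 32851 windows. The E-prime box was in 3 clock genes (Cry1, Cry2 and Nr1d1), against 5.31% of measured genes. The D-box was in 2 (Per1 and Per3), against 2.68% of measured genes, and the ROR element core in 1 (Nfil3), against 2.29%. Of the 6 clock genes with an E-box, Bhlhe41, Ciart and Tef were called and Cry1, Per1 and Tspan4 were not.

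Among the activators, Npas2 (chr1:39193731-39363236) was at 6.71, 6.28 and 4.40 CPM in the CD females and at 1.23, 0.777 and 0.497 CPM in the HFD females. In males it was at 4.42, 2.58 and 1.83 CPM on CD and at 1.06, 0.519 and 0.258 CPM on HFD. Every HFD library was below every CD library, a 5.78-fold fall (log2 fold change -2.53 ± 0.51, SE, adjusted p = 0.00323). Arntl (chr7:113207465-113314126) was at 27.4, 26.5 and 20.9 CPM in the CD females, 10.9, 4.92 and 4.39 CPM in the HFD females, 21.7, 15.5 and 10.3 CPM in the CD males and 11.01, 5.40 and 3.09 CPM in the HFD males. The diets separated in females, while in males the highest HFD library lay above the lowest CD library. Its log2 fold change was -1.59 ± 0.37 (adjusted p = 0.0129), a call that was lost without male CD 1, male HFD 3, female HFD 2 or female HFD 3, up to an adjusted p of 0.0818. Clock, the usual partner of ARNTL, had a log2 fold change of -0.36 ± 0.13 and did not pass (adjusted p = 0.181). Rora, a nuclear receptor that activates Arntl, was at a log2 fold change of -0.02 and did not pass.

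Of the 10 repressors, 5 rose and the other 5 did not pass. Per2 (chr1:91415982-91459324) was at 7.21, 6.66 and 15.2 CPM in the CD females and 22.1, 32.3 and 49.6 CPM in the HFD females, and at 5.46, 17.7 and 17.1 CPM in the CD males and 33.9, 30.1 and 43.0 CPM in the HFD males. All 6 HFD libraries exceeded all 6 CD libraries, and the log2 fold change was 1.62 ± 0.34 (adjusted p = 0.00529). Per3 (chr4:151003652-151044665) was at 4.44, 1.72 and 3.86 CPM in the CD females and 10.6, 23.8 and 43.9 CPM in the HFD females. Its male levels were 4.80, 4.06 and 13.3 CPM on CD and 13.4, 25.4 and 34.8 CPM on HFD. Only the lowest HFD female overlapped the highest CD male, and Per3 rose 5.07-fold (log2 fold change 2.34 ± 0.46, adjusted p = 0.0031).

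Bhlhe40 and Bhlhe41 encode E-box binding repressors also known as DEC1 and DEC2. Bhlhe40 (chr6:108660629-108666925) was at 18.6 to 49.7 CPM in the 6 CD libraries and 76.2 to 116 CPM in the 6 HFD libraries, with no overlap. Bhlhe40 rose by a log2 fold change of 1.40 ± 0.25 (adjusted p = 0.000517). Bhlhe41 (chr6:145858243-145865558) was at 0.392, 0.213 and 0.0894 CPM in the CD females and 1.27, 2.85 and 2.11 CPM in the HFD females. Males had 1.20, 0.901 and 3.36 CPM on CD and 4.48, 8.33 and 8.74 CPM on HFD. The diets separated within each sex, and the rise was 5.90-fold (log2 fold change 2.56 ± 0.44, adjusted p = 0.000384). Ciart was at 0.535, 0.520 and 0.626 CPM in the CD females and 2.09, 3.16 and 8.42 CPM in the HFD females, against 0.974, 5.26 and 3.10 CPM in the CD males and 4.67, 12.0 and 15.8 CPM in the HFD males. Male CD 2 lay above male HFD 1, and the log2 fold change of 2.40 ± 0.66 (adjusted p = 0.0468) lost its call in 10 of the 12 fits that leave out 1 library, all but those without male HFD 1 and female HFD 1, up to an adjusted p of 0.216 without female HFD 3.

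Repressors without a call were Nr1d2 (log2 fold change 0.84, adjusted p = 0.0581), Cry1 (-0.95, 0.124), Cry2 (0.59, 0.158), Per1 (0.63, 0.48) and Nr1d1 (0.75, 0.593). Nr1d2, which encodes REV-ERB beta, was at 21.3 to 46.4 CPM on CD and 52.2 to 88.2 CPM on HFD, with no overlap. Per1 differed widely within the CD groups, from 4.99 CPM in male CD 1 to 85.1 CPM in male CD 2.

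Of the D-box factors, Dbp (chr7:45705088-45710203) had the largest rise among the genes named here. It was at 3.64, 1.02 and 3.93 CPM in the CD females and 26.4, 67.3 and 98.2 CPM in the HFD females, and at 17.4, 8.29 and 64.2 CPM in the CD males and 36.9, 124 and 145 CPM in the HFD males. Females separated by diet, and in males the highest CD library exceeded the lowest HFD library. The rise was 8.67-fold (log2 fold change 3.12 ± 0.75, adjusted p = 0.0187), and its call was lost without male CD 1, male CD 2, female CD 2, male HFD 3 or female HFD 3, up to an adjusted p of 0.0789. Tef, a close relative of Dbp, rose by a log2 fold change of 1.06 ± 0.26 (adjusted p = 0.0221), from 52.4 to 164 CPM over the CD libraries and from 124 to 252 CPM over the HFD libraries. The same 5 omissions ended the Tef call, up to an adjusted p of 0.124. Hlf, the other member of that family, was at 0.32 ± 0.16 (adjusted p = 0.37). Nfil3, which binds the same sites as a repressor, was at -0.53 ± 0.33 and did not pass.

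Of 5 further outputs of the clock, 3 rose. Wee1 (chr7:110122046-110143286), a kinase that holds cells before mitosis, was at 3.21, 2.50 and 3.20 CPM in the CD females, 5.52, 11.05 and 20.9 CPM in the HFD females, 4.08, 2.54 and 5.19 CPM in the CD males and 6.94, 17.8 and 24.2 CPM in the HFD males. No HFD library overlapped a CD library, and the log2 fold change was 2.06 ± 0.32 (adjusted p = 0.000107). Usp2, a deubiquitinase, was at 2.32 to 12.7 CPM on CD and 7.87 to 34.4 CPM on HFD, with a log2 fold change of 2.05 ± 0.50 (adjusted p = 0.0204) that was lost without male CD 1, female CD 1, female CD 2, male HFD 3 or female HFD 3, up to 0.118. Nampt, the rate-limiting enzyme of NAD salvage, was at 37.8 to 46.7 CPM on CD and 48.4 to 93.9 CPM on HFD. Its log2 fold change of 0.75 ± 0.20 (adjusted p = 0.0456) lost its call in 10 of 12 fits, all but those without male HFD 1 and female HFD 1, up to 0.241 without female HFD 3. Por and Tspan4 were at 0.23 and 0.53 and did not pass.

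**Figure D1:**
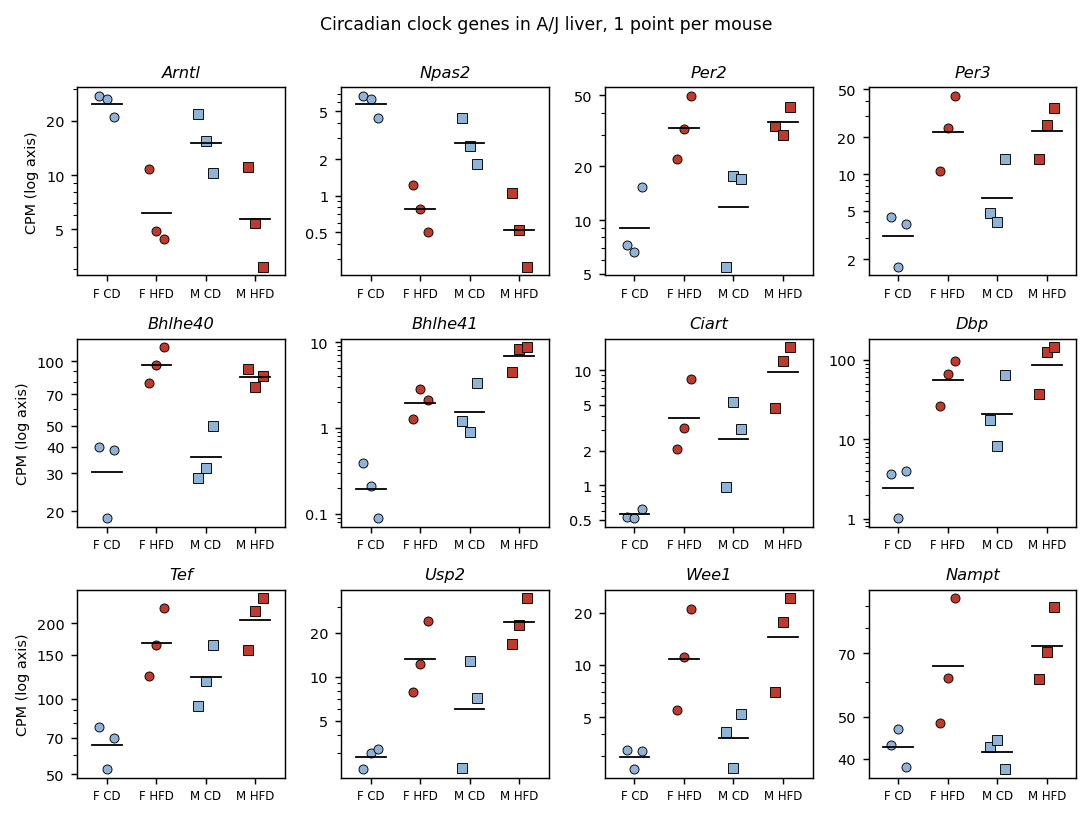
CPM on log axes for the 12 called clock genes, 1 point per mouse (circles, females; squares, males; blue, CD; red, HFD), with bars at the geometric mean of 3 mice. Arntl and Npas2 lie lower on HFD and the other 10 genes higher, with no overlap of the 12 libraries for Npas2, Per2, Bhlhe40, Wee1 and Nampt.

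Mice of 1 group also differed from each other along the same genes. In all 4 groups the library highest in Dbp was the one lowest in Arntl, Npas2, Pdk4 and Clpx and highest in Nr1d2. In 3 of the 4 groups it was also highest in Per2, Per3, Wee1, Usp2, Tef, Ciart and Thrsp. For Bhlhe40, Bhlhe41 and Nampt this held in 2 of the 4. These are orders of 3 mice, described without a test, and whether they or the diet difference go with the hour of death or with cohort was not tested. Reads of several clock genes may be shared with overlapping genes, since the strand used in counting is not given. GENCODE M21 places Sphk2 opposite Dbp, Thra opposite Nr1d1, Gm45355 opposite Arntl, Gm43909 opposite Bhlhe41 and 1600010M07Rik opposite Wee1, and Camta1 on the same strand as Per3.

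Of 31 genes for lipogenesis and glycolysis, 2 were higher and 1 lower, which is 9.68% of the list against 1.15% of all genes. The diets did not overlap in 3 of the 31, against 2.07% of all genes. At an unadjusted p under 0.05 by edgeR the list held 9 genes (29.0%, against 13.0% of all genes), and its median log2 fold change was 0.02. Thrsp (chr7:97412938-97417730) was at 5.67, 5.10 and 5.24 CPM in the CD females and 16.6, 44.5 and 51.2 CPM in the HFD females, and at 6.98, 5.85 and 12.5 CPM in the CD males and 21.3, 25.7 and 29.8 CPM in the HFD males. Diets separated over all 12 libraries, with a 4.61-fold rise (log2 fold change 2.20 ± 0.40, adjusted p = 0.000653). Scd1 (chr19:44394455-44407879) was at 210, 441 and 619 CPM in the CD females and 15.2, 218 and 56.5 CPM in the HFD females, and at 1021, 553 and 655 CPM in the CD males and 117, 183 and 54.6 CPM in the HFD males. Its diets separated in males, while the highest HFD female lay just above the lowest CD female. Scd1 fell 5.25-fold (log2 fold change -2.39 ± 0.58, adjusted p = 0.0187), a call lost without male CD 1, female CD 3, male HFD 3, female HFD 1 or female HFD 3, up to 0.0919.

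Dgat2, which makes triglyceride, was at 481 to 817 CPM on CD and 747 to 950.0 CPM on HFD. Its log2 fold change of 0.47 ± 0.13 had an adjusted p of 0.04995, and the call was lost in 10 of 12 fits, all but those without male CD 3 and male HFD 1, up to 0.209 without male CD 1. Several core enzymes did not pass. Fasn was at a log2 fold change of -0.21, Acaca at -0.16, Acly at -0.11 and Elovl6 at -0.68, and their regulators Srebf1 and Mlxipl were at 0.46 and 0.25. Aacs, which turns ketone bodies into precursors of fat and sterols and is on none of the lists, was at 6.45 to 12.4 CPM on CD and 15.96 to 77.3 CPM on HFD, with no overlap. Its log2 fold change of 1.85 ± 0.43 (adjusted p = 0.0129) was lost without male CD 1, male HFD 3 or female HFD 3, up to 0.124.

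Fatty acid oxidation showed 1 call in 38 genes (2.63%, against 1.15% of all genes), and the median was -0.11. Pdk4 (chr6:5483351-5496309) was at 182, 93.9 and 54.9 CPM in the CD females and 34.7, 16.6 and 10.99 CPM in the HFD females. In males it was at 56.6, 68.0 and 15.7 CPM on CD and 18.3, 5.73 and 4.56 CPM on HFD. Male CD 3 lay among the HFD libraries, and the others on CD lay above all HFD libraries. Pdk4 fell 5.10-fold (log2 fold change -2.35 ± 0.52, adjusted p = 0.00771), a call lost without male HFD 3 or female HFD 3, up to 0.0576. The carnitine transferase Cpt1a was at -0.17 and the PPARA-driven Cyp4a14 at -0.20, and neither passed.

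Other metabolic lists held at most 1 call each, which is 7.14% of the lipid droplet list, 4.35% of the bile acid list, 4% of the amino acid list and 1.75% of the xenobiotic list, against 1.15% of all genes. Hsd17b13, a protein of lipid droplets, was lower (log2 fold change -0.34 ± 0.09, adjusted p = 0.046) and was the single call among 14 lipid droplet genes, whose median was -0.32. Plin2, which coats droplets, was at -0.50 and did not pass (adjusted p = 0.403). Cyp8b1, the 12-alpha-hydroxylase that sets the cholic acid share, was the single call among 23 bile acid genes. It was at 573, 813 and 839 CPM in the CD females, 472, 667 and 398 CPM in the HFD females, 1884, 1478 and 1363 CPM in the CD males and 842, 667 and 549 CPM in the HFD males. Its log2 fold change was -0.87 ± 0.22 (adjusted p = 0.028), with overlap in females and none in males. Cyp7a1, the rate-limiting enzyme of bile acid synthesis, was at 23.6 to 80.1 CPM on CD and 29.5 to 233 CPM on HFD and did not pass (log2 fold change 1.65 ± 0.68, adjusted p = 0.249).

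Hal, which starts histidine breakdown, was at 370, 372 and 276 CPM in the CD females and 262, 288 and 159 CPM in the HFD females. Males had 454, 355 and 369 CPM on CD and 181, 178 and 136 CPM on HFD. It fell by 0.89 on the log2 scale (± 0.20, adjusted p = 0.00825) and was the single call among 25 genes of amino acid metabolism, whose median was -0.23. Got1, the cytosolic aspartate aminotransferase, was lower without overlap of the 12 libraries but did not pass (log2 fold change -1.18 ± 0.36, adjusted p = 0.0916). Aldh1a7 (log2 fold change -0.74 ± 0.20, adjusted p = 0.0397) was the single call among 57 genes of xenobiotic metabolism, a share of 1.75% near the 1.15% of all genes. At an unadjusted p under 0.05 by edgeR, 9 of the 25 amino acid genes (36%) and 14 of the 57 xenobiotic genes (24.6%) were counted, against 13.0% of all genes. The same count was 4 of 38 (10.5%) for fatty acid oxidation, 3 of 23 (13.0%) for bile acids and 3 of 14 (21.4%) for lipid droplets. Calls were lost on leaving out 1 library in 10 of 12 fits for Hsd17b13 (all but female CD 1 and female HFD 1, up to 0.231) and for Aldh1a7 (all but female CD 1 and male HFD 1, up to 0.141). They were lost in 7 for Cyp8b1 (male CD 1, female CD 2, female CD 3, male HFD 2, male HFD 3, female HFD 1 and female HFD 3, up to 0.13) and in 2 for Hal (male HFD 3 and female HFD 3, up to 0.0666).

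No gene passed among 26 for cholesterol synthesis and uptake (median log2 fold change -0.21), 21 for glucose and glycogen (-0.04) or 21 subunits of oxidative phosphorylation (0.04). Hmgcs1 of the mevalonate pathway was at -0.66 (adjusted p = 0.236) and G6pc, the last step of glucose release, at -0.78 (adjusted p = 0.196). At an unadjusted p under 0.05, these lists held 6 (23.1%), 2 (9.52%) and 0 genes by edgeR, against 13.0% of all genes.

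**Figure D2:**
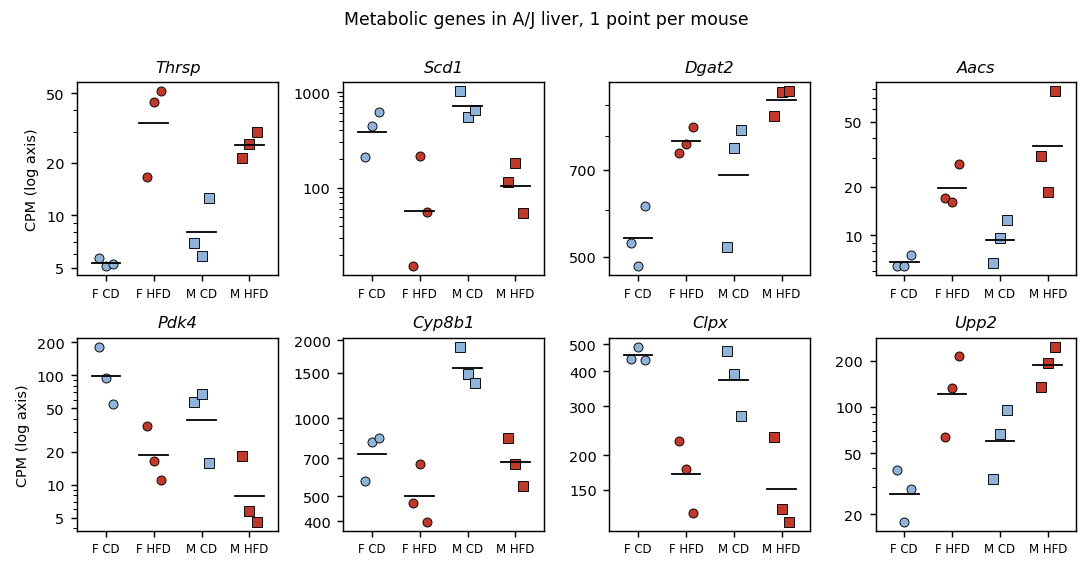
CPM on log axes for 8 metabolic genes, 1 point per mouse (circles, females; squares, males; blue, CD; red, HFD), with bars at the geometric mean of 3 mice. Thrsp and Aacs rise and Clpx falls without overlap of the diets, while Scd1, Dgat2, Pdk4, Cyp8b1 and Upp2 shift with some overlap.

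The genes for protein folding in the endoplasmic reticulum (ER) and for the heat shock response leaned to the HFD side without a call. Chaperones such as HSPA5 fold proteins that enter the secretory pathway, which in hepatocytes carries most plasma proteins. Of 32 measured members, 31 had a positive log2 fold change, 15 had no overlap of the diets (against 2.07% of all genes) and 22 (68.8%) had an unadjusted p under 0.05 by edgeR's quasi-likelihood test, against 13.0% of all genes, but 0 passed the adjusted threshold and DESeq2 called 0. The median was 0.66 in A/J and 0.02 for the mean of the other 8 strains, on the log2 scale. That difference passed for 0 of the 32 members by edgeR's quasi-likelihood test (18 at an unadjusted p under 0.05), 0 by DESeq2, 0 by limma with trend and 8 by limma with array weights. Hspa5 was at 533, 631 and 777 CPM in the CD females, 959, 1010.2 and 1369 CPM in the HFD females, 469, 822 and 478 CPM in the CD males and 1678, 1021 and 1019 CPM in the HFD males. All HFD libraries exceeded all CD libraries, and male CD 2 stood above the other CD males. The log2 fold change of 0.93 ± 0.37 did not pass (adjusted p = 0.231).

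Sdf2l1, an ER chaperone cofactor, was at 6.84 to 14.6 CPM on CD and 23.3 to 68.9 CPM on HFD, with a log2 fold change of 1.79 ± 0.58 (adjusted p = 0.12). Manf, a secreted ER stress protein, was at 35.1 to 62.5 CPM on CD and 86.7 to 168 CPM on HFD (1.27 ± 0.43, adjusted p = 0.144). The diets did not overlap for either gene. Of the cytosolic heat shock genes, Hsph1 was at 29.6 to 99.6 CPM on CD and 107 to 164 CPM on HFD (1.12 ± 0.42, adjusted p = 0.187), again without overlap. Hsp90aa1 overlapped only where male CD 2 lay above female HFD 2. Hspa1b (1.52 ± 0.67, adjusted p = 0.292) has a near-identical neighbour, Hspa1a, so its count is uncertain. Atf4, a driver of the amino acid stress response, was at -0.12. Within the CD males, male CD 2 was highest in all 8 of the stress genes plotted. A fit of the A/J libraries alone called 24 of the 32, all higher, against 2.63% of all genes higher in that fit. With array weights limma called 25, all higher, against 8.05%.

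**Figure D3:**
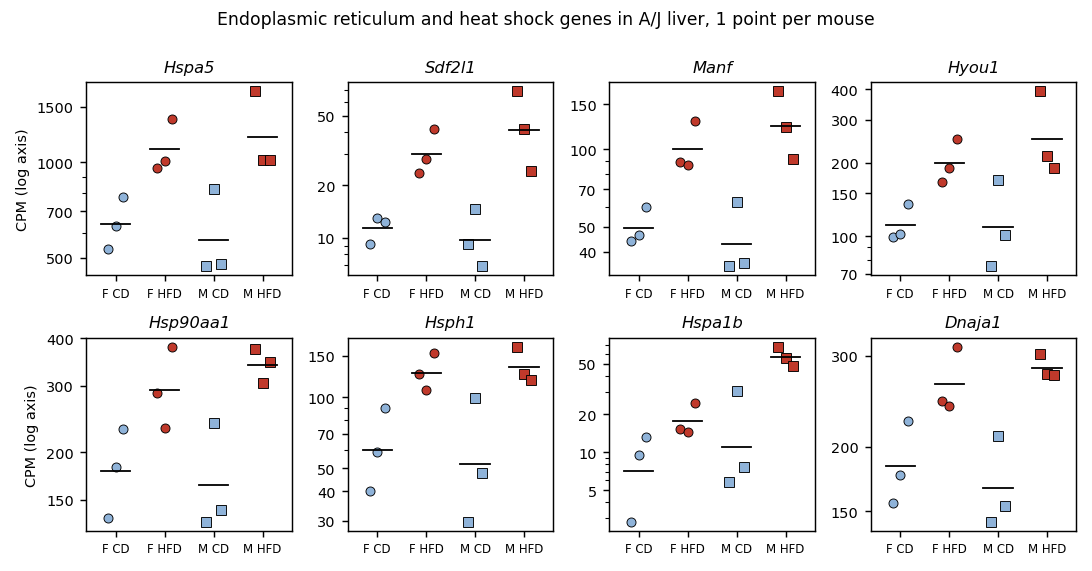
CPM on log axes for 8 genes of ER folding and heat shock, 1 point per mouse (circles, females; squares, males; blue, CD; red, HFD), with bars at the geometric mean of 3 mice. The diets do not overlap for Hspa5, Sdf2l1, Manf, Hsph1 and Dnaja1, male CD 2 lies above at least 1 HFD female for Hyou1, Hsp90aa1 and Hspa1b, and none of the 8 passed the adjusted threshold.

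Immune and matrix genes gave few calls. Of the immunoglobulin heavy chain constant genes, which plasma cells express, Ighg1, Ighg2b and Ighg2c were higher on HFD. Igha was at a log2 fold change of 0.98 (adjusted p = 0.189 by edgeR), Ighg3 at 0.38 (0.876), Ighm at 0.13 (0.93) and Ighd at -0.42 (0.668), and none of these passed. Ighg1 was at 0.642, 0.685 and 0.0894 CPM in the CD females and 6.06, 3.30 and 6.41 CPM in the HFD females, and at 0.703, 0.541 and 0.624 CPM in the CD males and 1.74, 2.14 and 1.66 CPM in the HFD males. All 12 libraries separated by diet, with a log2 fold change of 2.53 ± 0.55 (adjusted p = 0.00758). Ighg2b (1.99 ± 0.40, adjusted p = 0.00335) also separated fully. Ighg2c (1.89 ± 0.51, adjusted p = 0.042) overlapped, and it lost its call in 11 of 12 fits, all but that without female CD 2. Reads may be shared between these related constant regions, and Ighg1 and Ighg2b kept their calls in all 12. The light chain gene Igkc was at 5.97 to 12.0 CPM on CD and 13.5 to 25.0 CPM on HFD but did not pass (1.05 ± 0.29, adjusted p = 0.0516). The B cell gene Ms4a1 was at a log2 fold change of -0.04 and did not pass. Sums of the 13 lymphocyte markers, which include Igkc, Igha and Jchain, were 33.5 to 65.5 CPM on CD and 50.8 to 85.8 CPM on HFD, and their part in the heavy chain result was not tested.

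Of 25 interferon response genes 22 were positive, with a median of 0.27 in A/J and 0.46 in the mean of the other 8 strains, and 0 passed. No gene passed among 17 for antigen presentation (median 0.07), 23 acute phase genes (-0.06), 22 matrix genes (0.04), 19 cell division genes (0.30) or 36 sex-biased liver genes (0.03). In edgeR's quasi-likelihood test at an unadjusted p under 0.05, these 6 lists from interferon onward held 3 (12%), 0, 4 (17.4%), 0, 6 (31.6%) and 2 (5.56%) genes, against 13.0% of all genes. Of the macrophage genes, Marco had a log2 fold change of 1.16 (adjusted p = 0.176) and Adgre1 of 0.38 (adjusted p = 0.417).

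**Figure D4:**
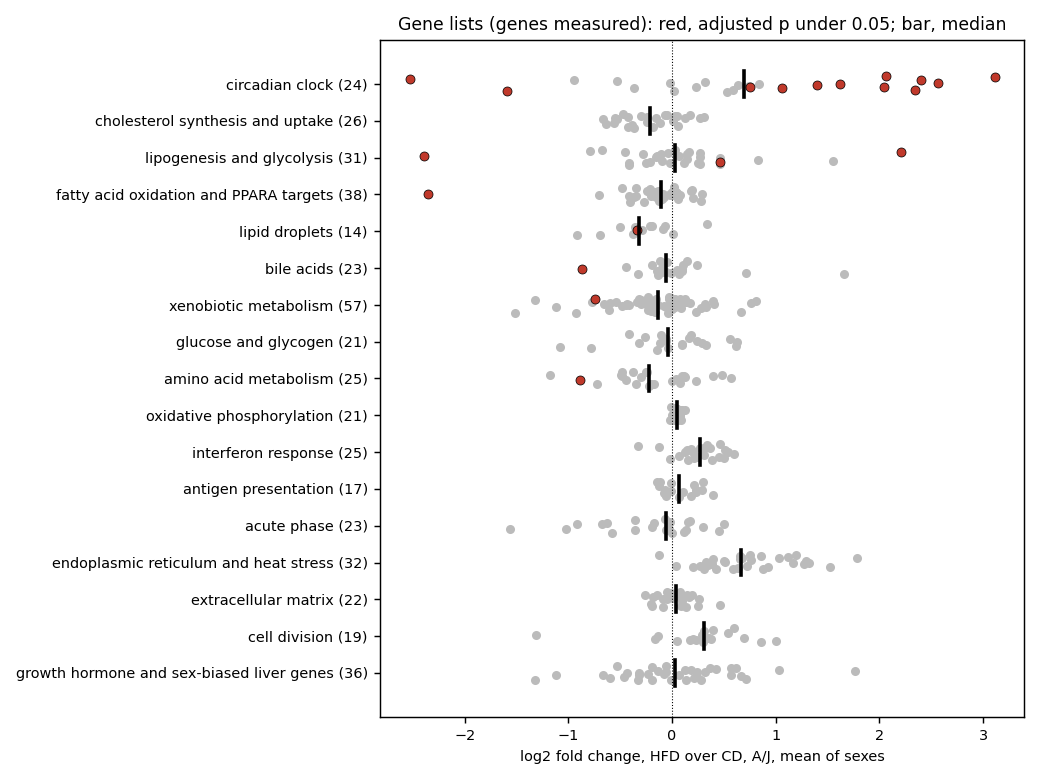
Log2 fold change on HFD in A/J, averaged over the sexes, for every measured member of 17 gene lists (red, adjusted p under 0.05; grey, not called; bar, median; numbers in brackets, genes measured). The clock list has 12 called members on both sides of 0, the stress list is shifted to the right without a call, and the other lists have 0 to 3 calls.

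Several strong changes lay outside the lists. Clpx (chr9:65294260-65330658) encodes a part of the mitochondrial protease ClpXP. It was at 443, 489 and 440.3 CPM in the CD females and 225, 178 and 124 CPM in the HFD females, and at 475, 391.8 and 276 CPM in the CD males and 232, 128 and 115 CPM in the HFD males. All libraries separated, with a 2.50-fold fall (log2 fold change -1.32 ± 0.23, adjusted p = 0.000517). Dnmt3b, a DNA methyltransferase, was at 3.29 to 10.0 CPM on CD and 1.72 to 3.08 CPM on HFD, a log2 fold change of -1.31 ± 0.28 (adjusted p = 0.00529). Srgap3, a GTPase activating protein, was at 3.38 to 8.83 CPM on CD and 0.846 to 2.47 CPM on HFD (-1.62 ± 0.28, adjusted p = 0.000517). Both separated over all 12 libraries and kept their calls in all 12 fits that leave out 1.

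Further falls named by the rule lost their calls in 3 to 10 of the 12 fits that leave out 1 library. Rnf125, a ubiquitin ligase, fell by 1.40 on the log2 scale (adjusted p = 0.0194), with male CD 1 at 160.4 CPM against 45.2 to 91.9 CPM in the other CD libraries, and its adjusted p was 0.233 without male CD 1. The Rnf125 call was also lost without female CD 2, male HFD 2, male HFD 3 or female HFD 3. Zbtb7c (-1.35, adjusted p = 0.0106) and the dicarboxylate transporter gene Slc13a2 (-1.43, adjusted p = 0.0197) were lower without overlap. Leaving out male HFD 3 or female HFD 3 ended both calls, as did male CD 1 for Zbtb7c (up to 0.0702) and female CD 1 for Slc13a2 (up to 0.118). Fbf1 (-1.24, adjusted p = 0.0403) rested on male CD 2, at 106.2 CPM against 14.6 and 23.4 CPM in the other CD males, and reached 0.498 without it. Fbf1 also lost its call without female CD 1, female CD 2, female HFD 2, female HFD 3 or any of the 3 HFD males. Olig1 (-1.27, adjusted p = 0.0491), Gm45053 (-1.30, adjusted p = 0.0254) and Ugt1a5 (-1.42, adjusted p = 0.0456) lost their calls in 10, 7 and 9 of 12 fits, up to 0.174, 0.118 and 0.164. The calls were kept without female CD 1 or male HFD 1 for Olig1, without male CD 3, female CD 2, female CD 3, male HFD 1 or female HFD 1 for Gm45053, and without male CD 3, male HFD 1 or female HFD 2 for Ugt1a5. Ugt1a5 shares its 3′ exons with the other Ugt1a genes, so its count is uncertain.

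Among further rises, the uridine phosphorylase gene Upp2 was at 17.8 to 95.3 CPM on CD and 64.0 to 247 CPM on HFD (1.92 ± 0.42, adjusted p = 0.00771; 0.0543 without female HFD 3). Dnaic1, a dynein gene that overlaps Enho on the opposite strand, was at 2.82 to 20.9 CPM on CD and 12.4 to 43.5 CPM on HFD (1.93 ± 0.45, adjusted p = 0.0133), a call lost without male CD 1, male CD 2, female CD 2, female CD 3 or male HFD 2, up to 0.0631. Gm45819, next to Wee1 on chromosome 7, was at 0.213 to 0.465 CPM on CD and 0.552 to 2.37 CPM on HFD (2.02 ± 0.39, adjusted p = 0.00234) without overlap.

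All 165 called genes had the same direction in both sexes, against 55.5% of all genes, as the average over sexes favours. Taken alone, females gave 31 calls (0.216% of genes), 14 higher (0.0977%) and 17 lower (0.119%). Males gave 4 calls (0.0279%), 2 higher (0.014%) and 2 lower (0.014%). These counts and their order depended on the fit. DESeq2 called 63 genes in females (34 higher, 29 lower) and 41 in males (8 higher, 33 lower). A/J libraries alone gave 178 in females (98 higher, 80 lower) and 282 in males (93 higher, 189 lower), and limma with array weights gave 1809 and 2811. The difference between the male and the female change was called for 0 genes by edgeR's quasi-likelihood test, with 984 at an unadjusted p under 0.05, and for 2 genes by DESeq2, 1 by limma with trend and 1990 by limma with array weights. Females alone passed for Ighg1 (3.50, adjusted p = 0.0314), Bhlhe41 (3.14, adjusted p = 0.0211), Per3 (2.95, adjusted p = 0.0314) and Thrsp (2.81, adjusted p = 0.0162), where the male changes were 1.57, 1.98, 1.73 and 1.60 on the log2 scale. Falls that passed in females included Srgap3 (-1.87), Clpx (-1.38) and Ndrg1 (-1.37), a stress-regulated gene of cell differentiation, beside male changes of -1.37, -1.27 and -1.02. These 7 calls in females all ended without female CD 1, female HFD 2 or female HFD 3, where 1, 1 and 7 genes were called in all. Cyp3a41b, a female-biased cytochrome P450, was at 27.2, 33.6 and 35.1 CPM in the CD females and 6.11, 0.656 and 0.754 CPM in the HFD females (-3.66, adjusted p = 0.0211), and at 0.043 CPM or less in all males. It belongs to a family of near-identical genes, so its count is uncertain, and the call was lost without female CD 1, female HFD 2 or female HFD 3, up to 0.198.

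In males, Sfxn1, a mitochondrial serine carrier gene, was at 95.8, 94.7 and 88.2 CPM on CD and 61.0, 61.7 and 55.4 CPM on HFD, without overlap (-0.65, adjusted p = 0.0267). Female levels were 79.6, 83.3 and 74.9 CPM on CD and 63.7, 70.4 and 62.5 CPM on HFD, also without overlap, and the change averaged over the sexes passed (-0.46 ± 0.09, adjusted p = 0.00322). Ext2, an enzyme of heparan sulfate synthesis, fell in males (-0.41, adjusted p = 0.0267) and was at -0.03 in females. Rnf227 (1.60) and Cplane1 (0.99) were higher in males, both at an adjusted p of 0.0267, and at -0.16 and 0.01 in females. All 4 male calls ended without male CD 1, male CD 3, male HFD 2 or male HFD 3, and the count over all genes was then 0 in each case. Dbp differed between the sexes by -2.70 ± 1.42 (male minus female, log2), with CD females lowest, and did not pass.

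The A/J change was set beside the mean change of the other 8 strains, namely WSB/EiJ, PWK/PhJ, NZO/HlLtJ, NOD/ShiLtJ, CAST/EiJ, 129S1/SvImJ, DBA/2J and C57BL/6J, fed the same diets. Of the 165 genes called in A/J, 155 (93.9%) had the same sign in that mean, against 63.6% of all genes. The mean of the other 8 strains, which rests on 94 libraries, called 5759 genes (40.2%). Called in both were 108 genes, 107 of them with the same sign, which is 65.5% of the A/J list and 1.88% of the other. In single strains, 117 of the 165 (70.9%) were called in the same direction in at least 1 of the other 8 and 48 in none, against 31.7% of all genes called in at least 1 in the direction of their A/J change. Against the A/J direction, 10 of the 165 (6.06%) were called in at least 1 other strain, beside 15.0% of all genes.

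The difference itself, A/J minus the mean of the other strains, passed for 28 genes (0.195%), 14 higher (0.0977%) and 14 lower (0.0977%) in A/J, and 9 of these were also among the 165. The clock genes Bhlhe41 (difference 2.00 ± 0.46, adjusted p = 0.0341) and Wee1 (1.47 ± 0.34, adjusted p = 0.0341) were among them. The Bhlhe41 change was 2.56 in A/J and 0.57 in the mean of the others, with 1.95 in DBA/2J and -1.06 in CAST/EiJ as the extremes, and Wee1 changed by 2.06 against 0.59. For 10 other called clock genes the difference did not pass. Npas2 changed by -2.53 in A/J and -0.60 in the others (difference adjusted p = 0.0897), Arntl by -1.59 and -0.62 (0.307), Per2 by 1.62 and 0.71 (0.293), and Dbp by 3.12 and 1.30 (0.348). DBA/2J was at 3.73 for Dbp, 2.41 for Per3 and 2.61 for Ciart, above A/J in each.

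Clpx (-1.03 ± 0.25, adjusted p = 0.0429) and Ndrg1 (-1.04 ± 0.23, adjusted p = 0.0332) differed downward. Clpx changed by -1.32 in A/J, -0.92 in C57BL/6J and -0.91 in DBA/2J, and by between -0.30 and 0.07 in the remaining strains. Ndrg1 changed by -1.20 in A/J and -0.80 in CAST/EiJ, and by between -0.36 and 0.23 in the remaining strains. For 4 further genes the A/J change did not pass on its own. Cyp3a11, the main drug-metabolising cytochrome P450 of this family, was at 0.03 in A/J and -1.29 in the mean of the others, which ranged from -2.47 in WSB/EiJ to 0.78 in PWK/PhJ (difference 1.32 ± 0.30, adjusted p = 0.0332). It has close relatives, so its count is uncertain. Smad9, a transducer of bone morphogenetic protein signals, was at 0.52 in A/J and -1.25 in the others, with -2.75 in DBA/2J (difference 1.76 ± 0.40, adjusted p = 0.0332). Col5a3, a fibrillar collagen, was at -0.66 in A/J and between 0.09 and 1.16 in the other 8 strains (difference -1.31 ± 0.30, adjusted p = 0.0332). Serpinb1a, an inhibitor of neutrophil proteases, was at -0.92 in A/J and 0.45 in the others (difference -1.37 ± 0.30, adjusted p = 0.0332).

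The count of differences depended on the test, on single libraries and on strains. DESeq2 called 74, limma with trend 14 and limma with array weights 1664. The 28 calls became 0 without male HFD 3, 1 without female CD 1, 3 without male CD 1, 5 without male HFD 2, 7 without female HFD 1 or female HFD 2, 11 without female CD 3 and 14 without male CD 2. Leaving out a strain gave 8 calls without NOD/ShiLtJ, 11 without 129S1/SvImJ, 13 without CAST/EiJ and 47 without NZO/HlLtJ. The library labelled 129S1/SvImJ female CD 1 carried sex-linked genes at male levels, and without it the count was 35. The NZO/HlLtJ males on HFD are 1 mouse.

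The fold changes of Pdk4 and Scd1 were negative in 8 and 7 of the other 8 strains, and each passed in 2 of them. Pdk4 had log2 fold changes between -2.18 (DBA/2J) and -0.84 (PWK/PhJ) in the other 8, and A/J at -2.35 did not differ from their mean of -1.35 (adjusted p = 0.492). Scd1 was at -3.49 in NOD/ShiLtJ, -2.39 in A/J and 0.21 in C57BL/6J (difference of A/J adjusted p = 0.509). Thrsp was at 2.72 in PWK/PhJ, 2.20 in A/J, 2.17 in DBA/2J and -0.33 in CAST/EiJ (difference adjusted p = 0.225).

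**Figure D5:**
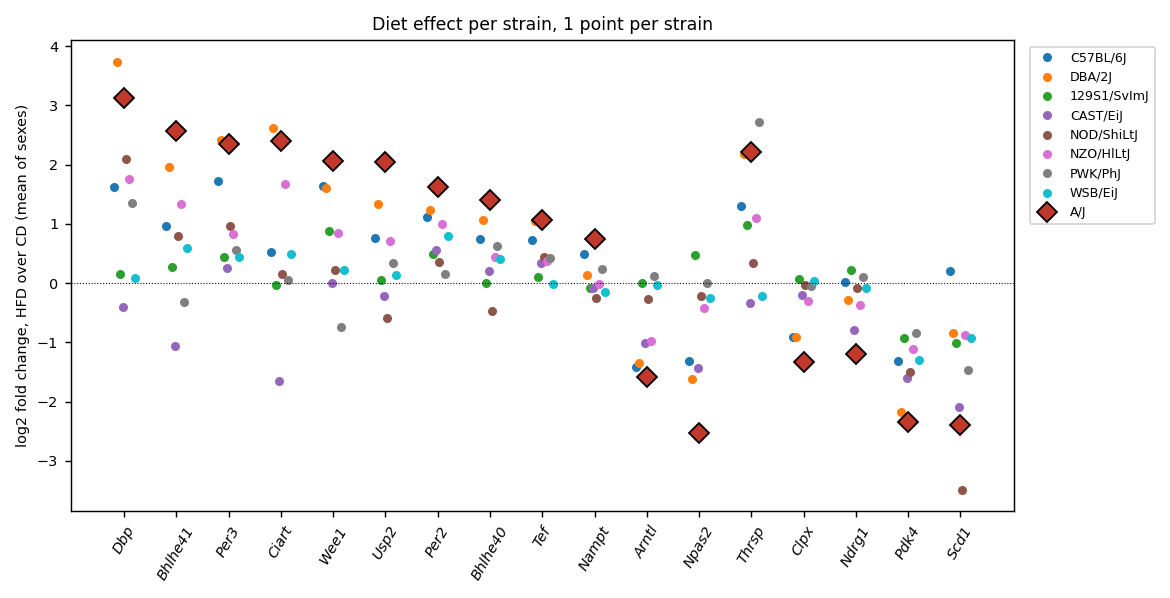
Log2 fold change on HFD, averaged over the sexes, for 17 genes in each of 9 strains (A/J, red diamonds; other strains, coloured points; dotted line, no change). A/J lies at the outer end for genes that include Bhlhe41, Wee1, Usp2, Npas2, Clpx, Ndrg1 and Pdk4. DBA/2J lies above it for Dbp, Per3 and Ciart, and NOD/ShiLtJ below it for Scd1. Of the 17 genes, the difference from the mean of the others passed for Bhlhe41, Wee1, Clpx and Ndrg1.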

How the data were processed

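The authors deposited a table of whole-number counts per gene, 1 column per mouse, for 14330 Ensembl genes. Its name speaks of TMM, but its values are unscaled counts. Per the labels' protocols, libraries were made with a SMARTER kit from 10 mg of TRIzol-extracted liver. The submitters' processing notes name FastQC, STAR 2.73a and edgeR 3.24.3. The counting tool, its strand setting, the build and the annotation are not given in the sources used here. Lines that count reads outside genes were dropped. In A/J libraries not uniquely aligned reads were 13.4% to 16.8%, ambiguous reads 5.73% to 6.47% and reads outside genes 4.07% to 7.38% of all.

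Groups follow the labelled strain, sex and diet. Counts of all 9 strains' libraries were fitted in 1 model of 36 group means with edgeR 4.0.16 in R 4.3.3 (TMM factors 0.839 to 1.13, trended dispersion, quasi-likelihood F test, 70 residual degrees of freedom), so groups of 3 share an estimate of the spread. There were 5 contrasts, each adjusted by Benjamini-Hochberg over 14330 genes with a threshold of 0.05. SE is the absolute log2 fold change divided by the square root of F, and fold changes use a prior count of 1. Symbols and positions are from GENCODE M21 (GRCm38), which named 14321 genes, and promoters from RefSeq.

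The rule names the 14 largest rises and falls past the threshold with 1 direction in both sexes and a mean of at least 1 CPM in a group, 4 each per sex, 5 each against other strains, and every called list member. The members and the 28 gene lists (17 of biology, 11 of markers) were chosen with earlier results of these data known. Alternatives were DESeq2 1.42.0, limma 3.58.1 with trend and with array weights, RLE factors, a CPM filter, no dispersion trend, A/J alone, and leaving out each library or strain. The script was tested on simulated data. Values of some list members are not reported here.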

Additional observations from a re-analysis of the deposited data

Results flagged for a closer look

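The diet change of A/J differed from the mean change of the other 8 strains by the edgeR quasi-likelihood test of that difference for these 10 genes, which the naming rule picked from 28. In 5 of them the change was lower in A/J. Gm36041 differed by -1.59 (log2, A/J minus the others), from -0.71 in A/J to 0.88 in the others. Serpinb1a differed by -1.37, Col5a3 by -1.31, Ndrg1 by -1.04 and Clpx by -1.03. The other 5 were higher in A/J. Bhlhe41 differed by 2.00, Smad9 by 1.76, Wee1 by 1.47 and Cyp3a11 by 1.32. The unnamed gene 4933431G14Rik, which lies opposite St3gal5, differed by 1.83, with 1.29 in A/J and -0.54 in the others.

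Adjusted p-values of these edgeR differences were between 0.0332 and 0.0429. Each call was lost in 6 to 10 of the 12 fits that leave out 1 A/J library, up to an adjusted p of 0.172 for Clpx and Ndrg1 without male CD 1. Among the others of the 28, the call was lost in 1 fit for Casc4, 2 for Ggt6 and Mcu, and 3 for Cct8. The rest lost theirs in 5 to 11 fits. Whether cohort, hour of death or strain goes with these differences was not tested.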

How the results depend on the processing

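No paired analysis was possible because the labels carry no replicate numbers shared between groups. No gene named by the rule changed direction under any alternative run, but the split of calls did. Females had 14 higher and 17 lower calls, against 34 and 29 with DESeq2 and 98 and 80 with A/J libraries alone. Males had 2 and 2, against 8 and 33, and 93 and 189. DESeq2 called 63 genes in females, 41 in males, 2 for male minus female and 74 for A/J minus the other strains. limma with trend called 1 for male minus female and 14 for A/J minus the others. limma with array weights called 2513 for the mean of sexes, 1809 in females, 2811 in males, 1990 for male minus female, 1664 against the others and 19 clock genes. A/J libraries alone called 790, 178 and 282 for the mean of sexes, females and males. RLE factors, the CPM filter and no dispersion trend left every count within 1.5 times. Without NOD/ShiLtJ, 129S1/SvImJ, CAST/EiJ or NZO/HlLtJ the differences from other strains numbered 8, 11, 13 and 47. Leaving out 1 A/J library gave 46 to 190 calls for the mean of sexes, 6 to 14 clock genes, 1 to 27 in females, 0 to 13 in males, 0 to 0 for male minus female and 0 to 42 against the others. Without male CD 1 and male CD 2, a setting added after seeing the data, 3 genes and 0 clock genes were called. The cause was not tested. For single named genes, 453 of the values under other settings stayed on the same side of the threshold and 95 did not, and with 1 library left out 437 did and 307 did not. Groups of 3 mice, not read depth, set the number of values behind each mean.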

Other observations

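The following genes were chosen after their values were seen and stand outside the naming rule. Casc4, a relative of the Golgi membrane protein GOLM1, had the smallest p in A/J. It was at 2.76, 1.54 and 2.00 CPM in the CD females, 7.09, 4.82 and 6.26 CPM in the HFD females, 1.18, 1.44 and 1.29 CPM in the CD males and 2.31, 1.97 and 2.89 CPM in the HFD males. The diets separated within each sex (log2 fold change 1.20 ± 0.17, adjusted p = 1.43e-05 by edgeR), and the call held in all 12 fits that leave out 1 A/J library. The other 8 strains averaged 0.25. Ggt6, a gamma-glutamyltransferase, was at 6.65 to 9.18 CPM on CD and 2.76 to 4.94 CPM on HFD (-1.01 ± 0.17, adjusted p = 0.000334 by edgeR) against -0.09 in the other strains. Wif1, a secreted WNT inhibitor, was at 0.307 to 0.624 CPM on CD and 0.865 to 3.04 CPM on HFD (1.74 ± 0.31, adjusted p = 0.000517 by edgeR). Mcu, the pore of the mitochondrial calcium uniporter, had a log2 fold change of -0.62 ± 0.14 (adjusted p = 0.0133 by edgeR), and its call was lost without male CD 1, female CD 1, male HFD 3 or female HFD 3, up to 0.0936.

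Alas1, the rate-limiting enzyme of heme synthesis, was at 97.3 to 504 CPM on CD and 258 to 984 CPM on HFD (1.37 ± 0.36, adjusted p = 0.0363 by edgeR). The fatty acid binding protein gene Fabp5 was at 18.7, 5.50 and 6.03 CPM in the CD females and 63.1, 75.9 and 21.2 CPM in the HFD females, and at 5.10, 2.92 and 7.58 CPM in the CD males and 6.51, 9.34 and 15.2 CPM in the HFD males (1.70 ± 0.44, adjusted p = 0.0297 by edgeR). Leaving out 1 library ended the call of Alas1 in 8 of 12 fits (up to 0.157 without male CD 1) and of Fabp5 in 7 (up to 0.134 without male HFD 3).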
